A study of Homo sapiens with 3 samples.

Results

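The syndecans (SDC1 to SDC4) and glypicans (GPC1 to GPC6) are the cell-surface heparan sulfate proteoglycans, and their transcripts were followed here in 3 HT1080 fibrosarcoma lines. All 10 genes had at least 1 probe set, a group of short array oligonucleotides for 1 transcript, whose platform annotation gave only that symbol. They had 18 of the 54675 probe sets on the array, 8 for syndecans and 10 for glypicans, and none of their probe sets named several genes. HT1080 is an established human fibrosarcoma line. The RECK line was stably transfected with RECK, and the RECK/4NQ line with RECK/4NQ, where glutamine stands in place of 4 N-glycosylated asparagines. The Zeo line was mock-transfected, and all 3 lines grew in 10% serum with 50 µg/mL of the selection drug Zeocin. Each line was measured on 1 array, so no value has a replicate error and no test was possible. Whether each line is 1 clone or a pool is not stated in the labels, so the transfected gene and other differences between the lines cannot be told apart.

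Syndecans span the membrane, and their short cytoplasmic tails bind PDZ proteins and actin regulators. Glypicans are held in the membrane by a glycosylphosphatidylinositol (GPI) anchor, as RECK itself is. The heparan sulfate chains of both families bind growth factors, morphogens and matrix proteins, and present them to their receptors. Proteases release syndecan ectodomains from the cell, and RECK is known as a membrane-anchored inhibitor of matrix metalloproteinases.

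The values are MAS5 signals, intensities on a linear scale. Signals under 12.2, the 40th percentile over the 3 arrays, counted as not measured and were raised to this floor. A gene or probe set was called higher or lower when both signals were measured and at least 2-fold apart, or when 1 was unmeasured and the other reached 24.5, which is 2 floors. Folds against an unmeasured signal are lower bounds and are written "at least". Gene values are those of the brightest probe set by mean log2 signal.

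Over the 14289 genes whose mean level reached the floor, RECK over Zeo had a median log2 ratio of -0.20. It was -0.12 in RECK/4NQ over Zeo, and -0.06 in RECK over RECK/4NQ. Of the genes called in RECK over Zeo 37.5% were higher, against 52.9% to 54.2% when the arrays were rescaled in 3 ways. For RECK/4NQ over Zeo this share was 28.3%, and 33.9% to 50.9% after rescaling. RECK had 5 probe sets, of which the brightest, marked _x_at for possible cross-hybridisation, read 387 in RECK, 442 in RECK/4NQ and 264 in Zeo. By it RECK was 1.47-fold and RECK/4NQ 1.68-fold above Zeo, neither past 2-fold as deposited. The others stayed below 27 on every array. Of these, 1 read 2.08 in RECK, 11.3 in RECK/4NQ and 26.2 in Zeo, at least 2.14-fold lower in both transfected lines. Another, also marked _x_at, read 17.9, 25.1 and 5.64, at least 2.05-fold higher in RECK/4NQ. No RECK probe set was called higher in RECK than in Zeo, so the labels could not be checked from these signals. The mesenchymal markers VIM, FN1, CDH2, LGALS1 and S100A4 were measured on all arrays, with summed signals from 23822 to 25792. Not all were level: S100A4 read 117 in RECK, 57.6 in RECK/4NQ and 94.4 in Zeo, 2.02-fold higher in RECK than in RECK/4NQ, a call lost on median centring. CDH2 was 1.74-fold higher in RECK than in RECK/4NQ, and the part of these markers in the results was not tested. Of the epithelial markers EPCAM, CDH1, KRT19, CLDN4 and ESRP1, only CDH1 reached the floor, at 15.6 in RECK/4NQ, and the summed signals were 23.2 in RECK, 24.4 in RECK/4NQ and 11.6 in Zeo. The 4 endothelial markers summed to 92.1 in RECK, 95.2 in RECK/4NQ and 122 in Zeo, mostly from PECAM1, and the 3 leukocyte markers measured to 43.2, 46.3 and 68.8. Of the 4 endothelial markers, 2 reached the floor in RECK, 1 in RECK/4NQ and 1 in Zeo. Of the 3 leukocyte markers, 1 did in RECK, 1 in RECK/4NQ and 2 in Zeo, with highest signals of 26.6, 34.3 and 48.7. CDH5 and CD14 were below the floor on every array. In RNA from whole cultures, fewer cells that express a gene and less RNA per cell cannot be told apart.

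Among the members, GPC1, GPC4 and SDC3 were at least 2-fold higher in RECK than in Zeo, by every one of their probe sets. In the signals as deposited none of these 3 genes was at least 2-fold higher in RECK/4NQ than in Zeo, but SDC3 was after 2 of the 3 rescalings. RECK/4NQ exceeded Zeo in a weak GPC6 signal and in 1 of 3 SDC2 probe sets. SDC1 and SDC4 had strong signals that differed at most 1.28-fold from Zeo.

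**Figure D1:**
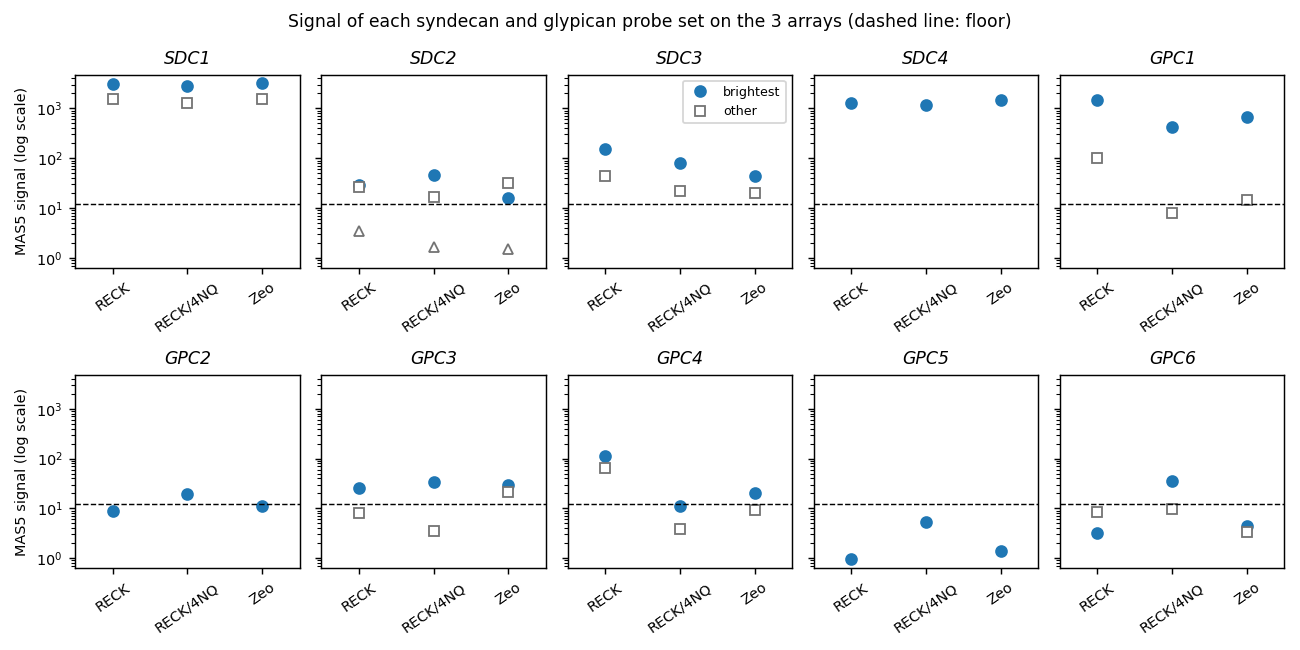
MAS5 signal (log axis) of every syndecan and glypican probe set on the RECK, RECK/4NQ and Zeo arrays, with 1 point per probe set and array. Filled circles are the brightest probe set of a gene, open symbols its others, and the dashed line is the floor of 12.2. GPC1, GPC4 and SDC3 are highest on the RECK array by all their probe sets, while SDC1 and SDC4 are nearly level.

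The promoters of GPC1, GPC4 and SDC3 are shown because every probe set of these 3 genes passed 2-fold upward in RECK over Zeo. By their brightest probe sets, they did not share a direction in RECK/4NQ over Zeo. The log2 ratios there were 0.87 for SDC3, -0.70 for GPC1 and -0.76 or lower for GPC4, none past 2-fold as deposited. The sequences run 5′ to 3′ over 300 bases around the annotated start of each gene, from RefSeq on build GRCh38.p14. Capitals mark GGGCGG or its reverse complement CCGCCC, the core of the GC box that SP-family factors bind.
GPC1, chr2:240435413-240435712, strand +: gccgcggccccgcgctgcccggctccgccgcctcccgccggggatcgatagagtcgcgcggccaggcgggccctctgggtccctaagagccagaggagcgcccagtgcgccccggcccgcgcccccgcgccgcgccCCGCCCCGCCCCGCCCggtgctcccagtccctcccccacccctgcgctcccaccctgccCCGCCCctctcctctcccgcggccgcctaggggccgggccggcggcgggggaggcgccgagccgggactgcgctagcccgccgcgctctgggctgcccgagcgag
GPC4, chrX:133415440-133415739, strand -: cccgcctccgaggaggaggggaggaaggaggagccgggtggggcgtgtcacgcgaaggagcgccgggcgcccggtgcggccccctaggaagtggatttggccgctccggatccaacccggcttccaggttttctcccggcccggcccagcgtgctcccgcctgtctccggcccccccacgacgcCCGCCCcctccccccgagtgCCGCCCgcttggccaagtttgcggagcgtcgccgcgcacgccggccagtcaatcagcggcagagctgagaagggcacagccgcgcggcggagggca
SDC3, chr1:30908709-30909008, strand -: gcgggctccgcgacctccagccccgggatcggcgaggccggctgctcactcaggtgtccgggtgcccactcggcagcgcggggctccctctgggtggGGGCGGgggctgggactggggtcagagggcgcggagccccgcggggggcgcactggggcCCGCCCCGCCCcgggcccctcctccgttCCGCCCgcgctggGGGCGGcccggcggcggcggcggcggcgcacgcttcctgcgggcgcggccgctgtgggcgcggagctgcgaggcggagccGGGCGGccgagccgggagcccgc
GGGCGG was found 4 times in the GPC1 window, 2 times in that of GPC4 and 6 times in that of SDC3, on both strands and with overlapping matches counted. The motif is common, since 45.0% of 35116 promoter windows of this length hold it. SDC4, whose signal hardly differed between lines, had 8 matches, and GPC6 had 0. The G and C content was 83.3% for GPC1, 74.7% for GPC4 and 84.0% for SDC3, with a median of 58.7% over all windows. The TATA motif TATAAA lay in the windows of GPC5 and GPC6 and in 11.5% of all windows. The AP-1 motif TGANTCA, present in 7.71% of all windows, was in none of those of the 8 members with a promoter entry. The E-box CAGCTG, in 17.9% of all windows, was found in 1 of the 2 windows of SDC1. These matches describe the letters of the windows only.

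Of the syndecans, SDC3, the form best known from the nervous system, was the 1 gene past 2-fold between RECK and Zeo in the signals as deposited. Its brightest probe set, 202898_at, had a signal of 156 in RECK, 82.0 in RECK/4NQ and 44.8 in Zeo. The other, 1554864_a_at, read 45.0 in RECK, 21.7 in RECK/4NQ and 19.7 in Zeo. RECK was thus highest by both, with RECK/4NQ in between. SDC3 was 3.48-fold higher in RECK than in Zeo by the first probe set and 2.29-fold by the second. To gauge noise, ratios were compared with those of the 1000 genes closest in level, whose robust spread also contains real differences. The log2 ratio of 1.80 by the first probe set lay 3.99 such spreads above their median. That of the second, 1.19, lay only 1.79 spreads above the median of the 1000 probe sets closest in level. In RECK/4NQ over Zeo the folds were 1.83 and 1.10, neither past 2-fold as deposited. The first passed it on median centring, at a log2 ratio of 1.10, and on quantile normalization, at 1.03, but not with a common trimmed mean, at 0.94. RECK over RECK/4NQ gave 1.90-fold by the first probe set and 2.08-fold by the second, so the call depends on the probe set. It also changed with the scaling, since 1.90-fold became a call when the arrays were set to a common trimmed mean.

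SDC1, the main syndecan of epithelia and plasma cells, was measured strongly in all lines. Its brightest probe set read 3142 in RECK, 2824 in RECK/4NQ and 3199 in Zeo, and the other 1559 in RECK, 1301 in RECK/4NQ and 1532 in Zeo. RECK and Zeo differed by 1.02-fold in both, in opposite directions. SDC4, a widely expressed syndecan of focal adhesions, read 1279 in RECK, 1159 in RECK/4NQ and 1486 in Zeo on its 1 probe set. Its order of levels was Zeo, RECK, RECK/4NQ, with folds of 1.16 for RECK and 1.28 for RECK/4NQ below Zeo. At this signal the spread of log2 ratios of nearby genes was 0.35 for RECK over Zeo and 0.30 for RECK/4NQ over Zeo. The log2 ratio of SDC4 was -0.22 in RECK over Zeo, and -0.36 in RECK/4NQ over Zeo, which is 1.10 spreads below the median of those genes.

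SDC2, a syndecan of mesenchymal cells, had weak signals and probe sets that went against each other. The brightest, 212154_at, read 29.5 in RECK, 45.6 in RECK/4NQ and 15.7 in Zeo, and 212157_at read 26.3, 16.8 and 32.5 on the same arrays. The third stayed below the floor on every array. By the first, RECK/4NQ was 2.90-fold above Zeo and RECK 1.88-fold above it. By the second, RECK/4NQ was 1.94-fold below Zeo. The mean of the probe sets gave a log2 ratio of 0.19 for RECK/4NQ over Zeo, so the call for SDC2 rests on 1 probe set. For RECK over Zeo, the 1.88-fold difference passed 2-fold after each of the 3 rescalings, while its log2 ratio of 0.91 became 0.20 with the probe sets averaged and 0.088 when the 60th percentile was the floor.

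Among the glypicans, GPC1, a broadly expressed member that binds FGF2 and acts as its coreceptor, was higher in RECK than in both other lines. Its brightest probe set, 202756_s_at, had a signal of 1453 in RECK, 416 in RECK/4NQ and 674 in Zeo. The other, 202755_s_at, read 99.97 in RECK, 7.86 in RECK/4NQ and 14.4 in Zeo. On both, RECK was highest and RECK/4NQ lowest. GPC1 was 2.16-fold higher in RECK than in Zeo by the first and 6.94-fold by the second. The log2 ratio of 1.11 by the brightest probe set lay 3.65 spreads above the median of genes of like level. RECK/4NQ was 1.62-fold lower than Zeo by the brightest probe set, 1.89 spreads below that median and not past 2-fold. RECK exceeded RECK/4NQ by 3.49-fold, or 5.19 spreads above the median, and by at least 8.17-fold on the second probe set. Both GPC1 probe sets are marked _s_at, which may detect more than 1 transcript, and no other was annotated to GPC1.

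GPC4, a glypican that modulates FGF and BMP signals, had the largest fold of the members by the brightest probe sets. Its brightest probe set, 204983_s_at, read 110.1 in RECK, 11.2 in RECK/4NQ and 20.7 in Zeo, and 204984_at read 65.2 in RECK, 3.85 in RECK/4NQ and 9.46 in Zeo. The signal was well above the floor in RECK, below it in RECK/4NQ by both probe sets, and in Zeo above it by 1 of them. GPC4 was 5.32-fold higher in RECK than in Zeo by the first, with a log2 ratio 3.84 spreads above the median of genes of like level, and at least 5.33-fold by the second. Against RECK/4NQ, RECK was at least 9.00-fold higher by the first and at least 5.33-fold by the second. For RECK/4NQ against Zeo the signal of the first probe set was at least 1.69-fold lower, which is not past 2-fold.

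GPC3, an oncofetal glypican that restrains hedgehog signalling, lies next to GPC4 on chromosome X. Its brightest probe set read 25.1 in RECK, 34.4 in RECK/4NQ and 28.7 in Zeo, differing at most 1.37-fold between any of the lines. The other was below the floor in RECK, at 8.20, and in RECK/4NQ, at 3.50, and read 21.1 in Zeo. That is at least 1.73-fold lower in each transfected line than in Zeo, not past 2-fold.

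GPC6, a glypican whose loss causes the skeletal disorder omodysplasia, was measured on the RECK/4NQ array only. Its brightest probe set, 223730_at, read 3.24 in RECK, 35.8 in RECK/4NQ and 4.36 in Zeo, while 227059_at stayed below the floor at 8.24, 9.47 and 3.37. RECK/4NQ was therefore at least 2.93-fold higher than Zeo, and RECK at least 2.93-fold lower than RECK/4NQ, by 1 of 2 probe sets. GPC5, its neighbour on chromosome 13, was below the floor on all arrays, with 0.948 in RECK, 5.26 in RECK/4NQ and 1.39 in Zeo. GPC2, a glypican of the developing nervous system, read 8.75 in RECK, 19.8 in RECK/4NQ and 11.1 in Zeo. It reached the floor in RECK/4NQ alone and was not called in any comparison.

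**Figure D2:**
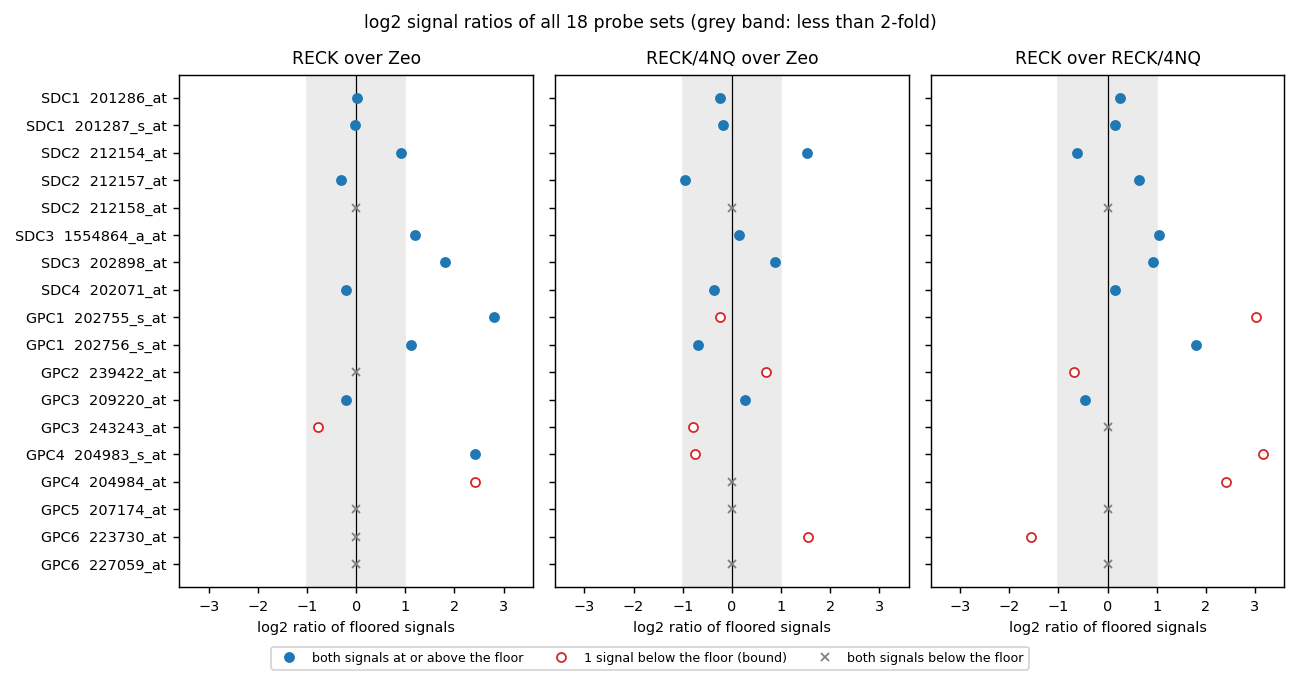
log2 ratio of floored signals for each of the 18 probe sets in RECK over Zeo, RECK/4NQ over Zeo and RECK over RECK/4NQ. Filled points have both signals at or above the floor, open points are bounds with 1 signal below it, crosses have both below it, and the grey band spans less than 2-fold. The 6 points past 2-fold in RECK over Zeo belong to SDC3, GPC1 and GPC4.

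In RECK over Zeo, 3 of 10 members were higher and 0 lower, where 4.03% of all 19775 genes were higher and 6.71% lower. With no replicates, no test stands behind these counts. By probe set, 6 of 18 were higher, against 3.52% of all probe sets. Of the 6 members with exactly 2 probe sets, 3 were higher by both, where 0.718% of the 5015 such genes on the array were. The median log2 ratio of the 8 members whose mean level reached the floor was 0.45, and 0.65 relative to the median of all such genes.

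In RECK/4NQ over Zeo, SDC2 and GPC6 were higher and 0 members lower, with 2.82% of all genes higher and 7.14% lower. By probe set, 2 of 18 were higher, against 2.96% of all, and 0 of the 6 members with 2 probe sets were higher by both, against 0.259% of such genes. The members' median log2 ratio was 0.04, or 0.16 relative to all genes. Both calls were lost when probe sets were averaged or the floor was set at the 60th percentile.

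In RECK over RECK/4NQ, GPC1 and GPC4 were higher and GPC6 lower, with 5.77% of all genes higher and 4.48% lower. By probe set, 5 of 18 were higher, against 4.83% of all. Both probe sets passed 2-fold for GPC1 and for GPC4, as in 1.06% of genes with 2 probe sets. The members' median log2 ratio was 0.15, or 0.21 relative to all genes. GPC1 and GPC4 were at least 2-fold higher in RECK than on both other arrays, as were 2.11% of all genes. These comparisons share the RECK array, and the comparisons over Zeo share the Zeo array, so they are not separate observations.

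**Figure D3:**
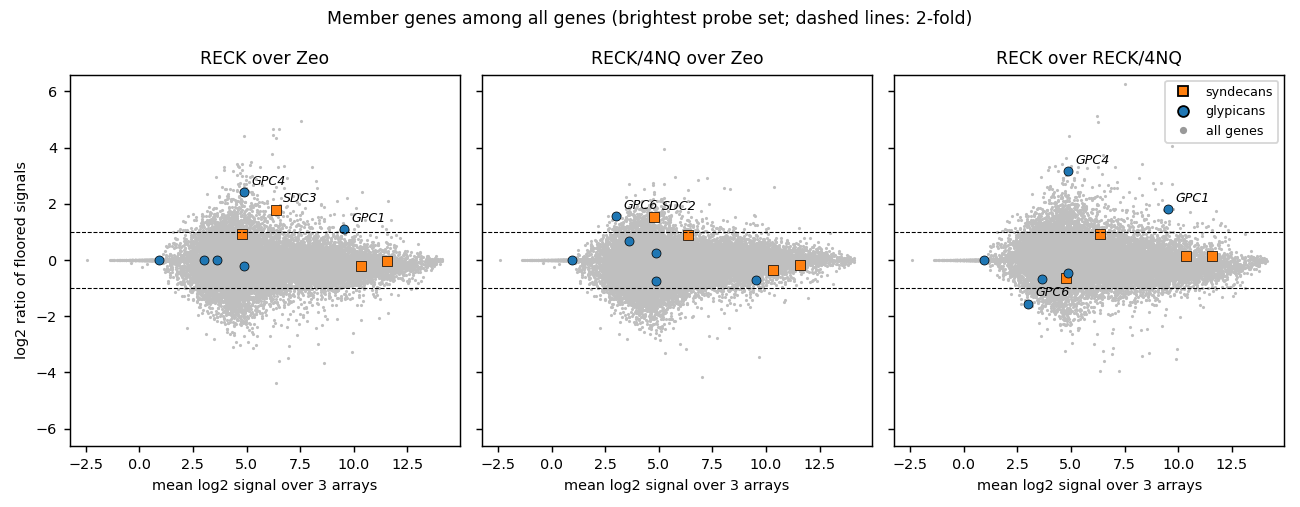
log2 ratio against mean log2 signal over the 3 arrays for all 19775 genes (grey), with syndecans as squares and glypicans as circles, in the 3 comparisons. Dashed lines mark 2-fold and members past it are named. GPC1 lies where the grey cloud is narrow, SDC2 and GPC4 where it is wide, and GPC6 near the floor.

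Genes near each member were examined, because a shift shared with neighbours would show in them. For each member the 10 nearest genes on each side whose mean level reached the floor were taken from the RefSeq gene order. In RECK over Zeo, the neighbours of GPC4 had a median log2 ratio of -0.10 and all 20 lay below GPC4 at 2.41. Those of GPC1 had a median of -0.30, and 19 of 20 lay below it. The neighbours of SDC3 on chromosome 1 had a median of 0.26, above the -0.20 of all genes, and 5 of the 20 were called higher themselves. All 20 lay below SDC3, whose log2 ratio was 1.54 after their median was subtracted. Around GPC5 and GPC6 on chromosome 13 the neighbours' median was -0.57 in RECK over Zeo and -0.56 in RECK/4NQ over Zeo, with 3 and 5 of 20 called lower. GPC6 in RECK/4NQ over Zeo stood at 1.55 or more, above all 20. The neighbours of SDC4 had a median of -0.55 in RECK over Zeo, with SDC4 at -0.22 above 16 of them.

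**Figure D4:**
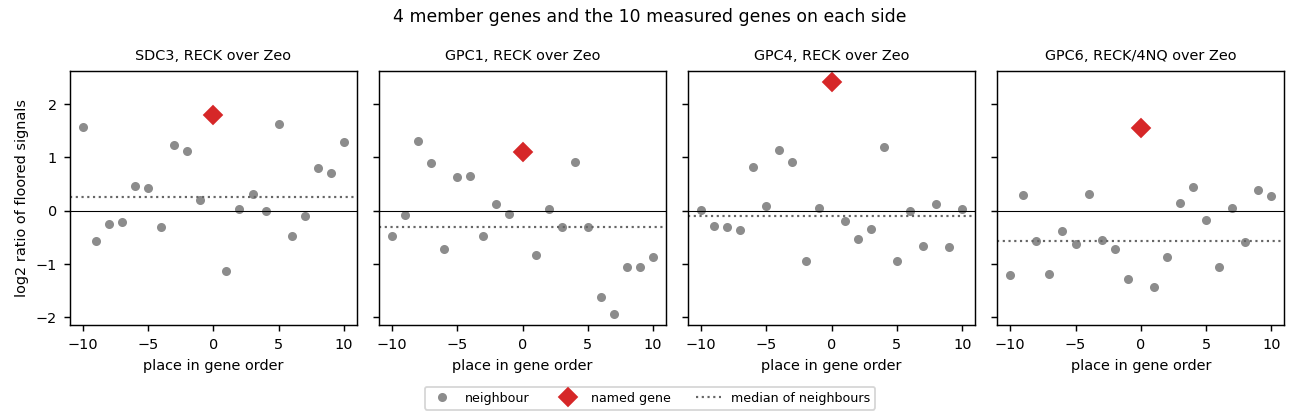
log2 ratio of SDC3, GPC1 and GPC4 in RECK over Zeo and of GPC6 in RECK/4NQ over Zeo (diamonds), with the 10 nearest measured genes on each side (grey points) by place in the gene order. The dotted line is the median of the 20 neighbours, which is 0.26 around SDC3 and -0.56 around GPC6. The diamonds lie above every neighbour for SDC3, GPC4 and GPC6, and above 19 of 20 for GPC1.

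The other parts of the heparan sulfate system were read from 7 gene lists, whose counts stand against the shares of all genes past 2-fold given for each comparison. After the 3 rescalings, 5.39% to 5.44% of all genes were higher and 4.55% to 4.83% lower in RECK over Zeo. In RECK/4NQ over Zeo, 3.12% to 4.46% were higher and 4.31% to 6.09% lower. In RECK over RECK/4NQ, 5.73% to 7.12% were higher and 3.67% to 5.23% lower. Of 11 genes that build the chain, XYLT1, which starts it by adding xylose to the core protein, was the 1 gene higher in RECK than in Zeo, with 0 lower. Its brightest probe set, marked _x_at for possible cross-hybridisation, read 54.3 in RECK, 3.25 in RECK/4NQ and 23.1 in Zeo. The other read 41.3, 1.00 and 1.21. XYLT1 was 2.35-fold above Zeo by the first, at least 3.38-fold by the second, and at least 4.44-fold above RECK/4NQ by the first. In RECK/4NQ over Zeo, 1 of the 11 was lower and 0 higher. This was EXTL2, a glycosyltransferase of the linkage region, at 28.8 in RECK/4NQ and 65.8 in Zeo, a call lost on median centring. The polymerases EXT1 and EXT2 read 1359 and 829 in RECK, 1484 and 698 in RECK/4NQ, and 1566 and 665 in Zeo.

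Of 19 genes that modify the chain, SULF2, an extracellular sulfatase that removes 6-O-sulfate groups, was higher in RECK than in Zeo and HS3ST1, a 3-O-sulfotransferase, lower. SULF2 read 714 in RECK, 20.4 in RECK/4NQ and 28.4 in Zeo by its brightest probe set, and 246, 12.8 and 43.0 by the other. The related SULF1 read 23.7 in RECK, 16.4 in RECK/4NQ and 9.11 in Zeo, not past 2-fold as deposited. After each rescaling SULF1 and the 3-O-sulfotransferase HS3ST5 passed it, which made 3 higher and 0 lower in RECK over Zeo. HPSE, the heparanase that cuts the chains, read 63.0 in RECK, 62.4 in RECK/4NQ and 75.5 in Zeo. HS3ST1 was below the floor in both transfected lines, at least 2.06-fold lower than the 25.2 in Zeo, and its call was lost with each rescaling. A second HS3ST1 probe set was at least 4.32-fold lower in both, with 52.8 in Zeo. In RECK/4NQ over Zeo, 3 of the 19 were lower and 0 higher, the others being HS3ST6 (at least 2.65-fold, 4.13 against 32.4) and HS3ST3B1 (2.04-fold by its brightest probe set, while another was at least 1.59-fold higher). The call for HS3ST3B1 was lost with each rescaling. RECK over RECK/4NQ had 2 higher, SULF2 by 35.1-fold and HS3ST6 by at least 3.11-fold, and 0 lower, and HS3ST5 and the epimerase GLCE joined them after each rescaling, making 4.

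Among 13 genes whose proteins release or cleave the core proteins, 2 were lower in RECK than in Zeo, 0 higher and 11 not past 2-fold. These were the gelatinase MMP9, which can shed syndecans, at 203 in RECK, 2306 in RECK/4NQ and 1947 in Zeo, and the proprotein convertase PCSK6, at 17.8, 36.3 and 42.9. The gelatinase MMP2, at 2429 in RECK, 1692 in RECK/4NQ and 1307 in Zeo, was 1.86-fold higher in RECK than in Zeo and passed 2-fold after each rescaling. None passed 2-fold in RECK/4NQ over Zeo. In RECK over RECK/4NQ, MMP9 and PCSK6 were lower and NOTUM, a secreted esterase that inactivates Wnt proteins and has been reported to release glypicans, was higher, at 98.5 in RECK and 46.4 in RECK/4NQ. The PCSK6 call was lost with a common trimmed mean. The sheddases ADAM10 and ADAM17 read 62.5 and 56.8 in RECK, 45.5 and 71.2 in RECK/4NQ, and 84.0 and 87.7 in Zeo. MMP14, the membrane-type metalloproteinase known to shed SDC1, read 895 in RECK, 1199 in RECK/4NQ and 1248 in Zeo.

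None of the 9 measured partners of the syndecan tails passed 2-fold in any comparison. SDCBP, the PDZ protein syntenin, read 319 in RECK, 271 in RECK/4NQ and 326 in Zeo, and PRKCA, the kinase that SDC4 activates, read 362, 482 and 433. Of 27 genes for GPI anchor assembly, on which glypicans and RECK depend, 0 passed 2-fold in either transfected line over Zeo as deposited, and DPM3, a subunit of dolichol-phosphate mannose synthase, was higher in RECK after each rescaling. In RECK over RECK/4NQ, PIGH, at 52.7 in RECK and 118 in RECK/4NQ, and PIGW, at 134 and 294, were lower.

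Of the 18 growth factors and receptors that use heparan sulfate, 5 were lower in RECK than in Zeo and 0 higher, and 3 were lower after each rescaling. The largest were the heparin-binding cytokine MDK, at 71.2 in RECK, 209 in RECK/4NQ and 344 in Zeo, FGF18, at 13.03, 33.4 and 32.8, and the receptor FGFR3, at 49.6, 35.6 and 115. A dimmer FGF18 probe set read 23.0 in RECK and 3.57 in Zeo, and the other of FGFR3 read 18.9 in RECK and 17.5 in Zeo. FGF2, the GPC1 ligand, was 2.02-fold lower in RECK at 23.95 against 48.4, and this call was lost with each rescaling. In RECK/4NQ over Zeo, 4 were lower and 1 higher. PDGFB was at least 5.39-fold lower (below the floor against 66.0), FGF2 at least 3.96-fold and FGF5 at least 3.37-fold, though another FGF5 probe set was at least 2.53-fold higher. The PDGFB values are those of the brightest of its 4 probe sets, which is marked _x_at for possible cross-hybridisation. VEGFA was 2.44-fold higher, at 1631 against 669. In RECK over RECK/4NQ, 2 were higher, PDGFB by at least 6.55-fold and FGF5 by at least 2.09-fold, and 4 lower, among them MDK by 2.93-fold, FGF18 by 2.57-fold and VEGFA by 2.37-fold. FGF2 joined the higher ones after each rescaling, making 3.

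Of 8 other heparan sulfate proteoglycans, COL18A1, the basement membrane collagen that yields endostatin, was the 1 gene higher in RECK than in Zeo, with 0 lower. Its probe sets read 96.3 and 55.0 in RECK, 23.97 and 2.89 in RECK/4NQ, and 25.7 and 3.92 in Zeo. HSPG2, perlecan, was 4.09-fold lower in RECK/4NQ than in Zeo by its brightest probe set (32.9 against 135) and 2.04-fold by the other. It read 182 in RECK, 5.52-fold above RECK/4NQ. In RECK over RECK/4NQ, COL18A1 and HSPG2 were higher and 0 lower, and the list's median log2 ratio was 0.73 above that of all genes. It was 0.17 above it for RECK over Zeo and 0.29 below it for RECK/4NQ over Zeo. For the other 6 lists the median relative to all genes lay between 0.0049 for the growth factors and 0.31 for the release genes in RECK over Zeo. In RECK/4NQ over Zeo it ranged from -0.24 for the growth factors to 0.21 for GPI anchor assembly, and in RECK over RECK/4NQ from -0.12 for GPI anchor assembly to 0.22 for the syndecan partners.

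**Figure D5:**
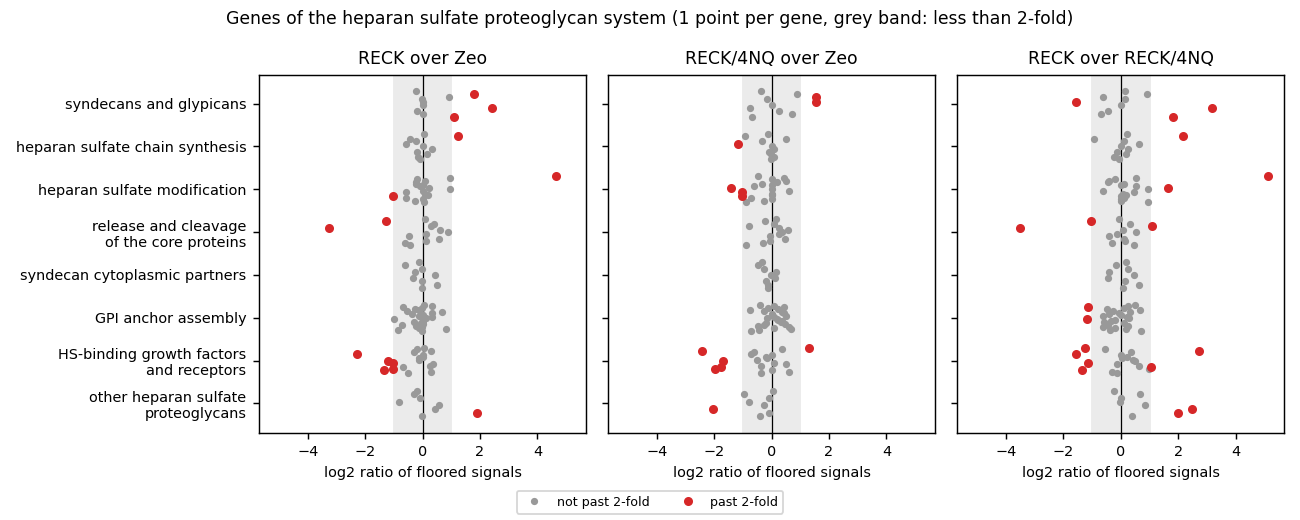
log2 ratio of floored signals of each gene of the syndecan and glypican family and of 7 lists of the heparan sulfate system in the 3 comparisons, with 1 point per gene by its brightest probe set. Red points are past 2-fold and the grey band spans less than 2-fold. SULF2 lies farthest right in RECK over Zeo and in RECK over RECK/4NQ, and MMP9 farthest left.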

How the data were processed

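The deposited values are MAS5 signal intensities, 1 per probe set and array, with MAS5 named in the submitters' processing notes. The sources used here give no version, scaling target or detection calls. MAS5 subtracts a mismatch estimate, so weak signals are noisy. The arrays' trimmed means, without the lowest and highest 2%, were 98.5 for RECK, 106 for RECK/4NQ and 111 for Zeo, and only 3 arrays limit the precision.

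Calculations here used Python 3.11.15 with numpy 2.4.6 and pandas 2.3.3. The 62 control probe sets were left out. Of the rest, 41091 had 1 gene symbol in the platform annotation, 1801 several and 11721 none listed, and 41037 matched a current RefSeq gene. Robust spread was 1.4826 times the median absolute deviation.

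The text names all members, RECK, SULF1, SULF2, HPSE, ADAM10, ADAM17, MMP9, MMP14, and up to 3 genes per list, comparison and direction past 2-fold; EXT1, EXT2, SDCBP, PRKCA, HS3ST5, GLCE, MMP2, DPM3, S100A4, CDH2 and the calls of FGF2 in RECK were chosen after their values were seen. The members and lists were chosen with earlier results of these data known. Listed genes without a probe set of their own symbol were not counted.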

Additional observations from a re-analysis of the deposited data

How the results depend on the processing

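With 1 array per line, small signals limit what can be said: GPC2, GPC3, GPC5, GPC6 and SDC2 lay near or below the floor. So did the dimmer GPC1 probe set outside the RECK line, at 7.86 in RECK/4NQ and 14.4 in Zeo. GPC4 did too outside that line, at 11.2 in RECK/4NQ and 20.7 in Zeo by its brightest probe set. Its log2 ratio in RECK over RECK/4NQ, 3.17, became 1.99 with the 60th percentile as floor and 2.41 with unshared probe sets. No paired analysis was possible because each group has 1 array. GPC4 and SDC3 were higher in RECK than in Zeo under all 9 alternatives, and GPC1 under all but the use of unshared probe sets, of which it has none. Not all 9 could remove these calls. The 1.5-fold setting keeps every 2-fold call, and each rescaling raised the log2 ratios of these 3 genes, for SDC3 from 1.80 to 1.97 or more. SDC2 joined the 3 genes after each rescaling and at 1.5-fold. For RECK/4NQ over Zeo, the 2 higher members became 0 when the floor was the 60th percentile, 0 with all probe sets averaged, 3 on median centring and on quantile normalization, where SDC3 joined SDC2 and GPC6, and 4 at 1.5-fold, and the 0 lower became 2 at 1.5-fold. For RECK over RECK/4NQ, the 2 higher became 1 with unshared probe sets, since GPC1 has none, and 3 with a common trimmed mean and at 1.5-fold, with SDC3 added. The 1 lower, GPC6, became 0 when the floor was the 60th percentile or probe sets were averaged, 2 when it was the 20th percentile, and 3 at 1.5-fold. The changes with a floor or fold follow from its construction; for the others the cause was not tested. Of 237 log2 ratios of members recomputed, 204 moved by less than the spread of genes of like level, 33 by more, and 0 called ones changed sign. For GPC5, and for GPC6 in RECK over RECK/4NQ, that spread was 0, so any change there counted among the 33. Over all genes, RECK over Zeo gave 797 higher, with 328 to 1855 under the alternatives, and 1327 lower, with 526 to 3635. For RECK/4NQ over Zeo 558 were higher (167 to 1562) and 1411 lower (456 to 3514), and for RECK over RECK/4NQ 1141 were higher (469 to 2701) and 886 lower (382 to 2628).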
